A study of Tribolium castaneum with 2 samples.

Results

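New spliced isoforms of *T. castaneum* larvae were taken as assembled transcripts whose splicing was found in both RNA libraries and in no reference transcript of their gene. A transcript entered where it had 2 or more exons and shared exonic bases on its strand with exactly 1 reference gene. Its full set of introns had to be identical in both libraries and had to differ from that of each reference transcript of the gene. The rule gave 2170 isoforms, of 7674 transcripts assembled in the normoxia library and 7423 in the hypoxia library. They lay in 1918 of 17070 reference genes (11.2%). Levels were not used to choose them, but an isoform had to be expressed enough to be assembled in both libraries.

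RNA was measured in larvae kept for 12 h under hypoxia/hypercapnia (2% O2, 18% CO2 and 80% N2 supplied) and in larvae kept for 12 h in ambient air. The larvae were wild-type late-instar larvae from a laboratory culture, 20 days from oviposition, and poly(A) RNA of whole, pooled larvae was sequenced. Each condition had 1 library, titled TC1 and TC2, so no difference below has a replicate check and each one compares 2 libraries. That TC1 was the normoxia and TC2 the hypoxia library comes from a legend in the study's supplement, as both samples carry identical label text. Low oxygen and high CO2 cannot be told apart in this design.

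A gene is transcribed into a precursor RNA, from which introns are cut between a donor site at their 5′ end and an acceptor site at their 3′ end. By other start sites, by skipping an exon, by other donor or acceptor sites or by keeping an intron, 1 gene can give several mature RNAs. A change before the coding sequence leaves the protein as it is, while a change inside it keeps the reading frame only where the bases gained or lost are a whole number of codons. The reference models held coding sequence with no untranslated ends, since 97.9% of their lengths were multiples of 3. The first base of a reference model is therefore called its coding start, and its length its coding length.

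Changes at the 5′ end were the commonest class. The reference models hold no untranslated ends, so every intron in an untranslated end counts as a difference. In 1042 of 2170 isoforms (48.0%) all differences lay before the first intron shared with the reference, and in 359 (16.5%) they lay after the last shared intron. A further 228 isoforms (10.5%) differed between shared introns only, and 276 (12.7%) in several places. The remaining 131 shared no intron with the reference, and 134 belonged to genes whose reference has no intron. At least 1 intron absent from the reference gene was held by 1793 isoforms, while 377 held none and differed by introns they lacked. One isoform was found in each of 1683 genes, 2 in each of 218 genes and 3 in each of 17 genes.

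**Figure D1:**
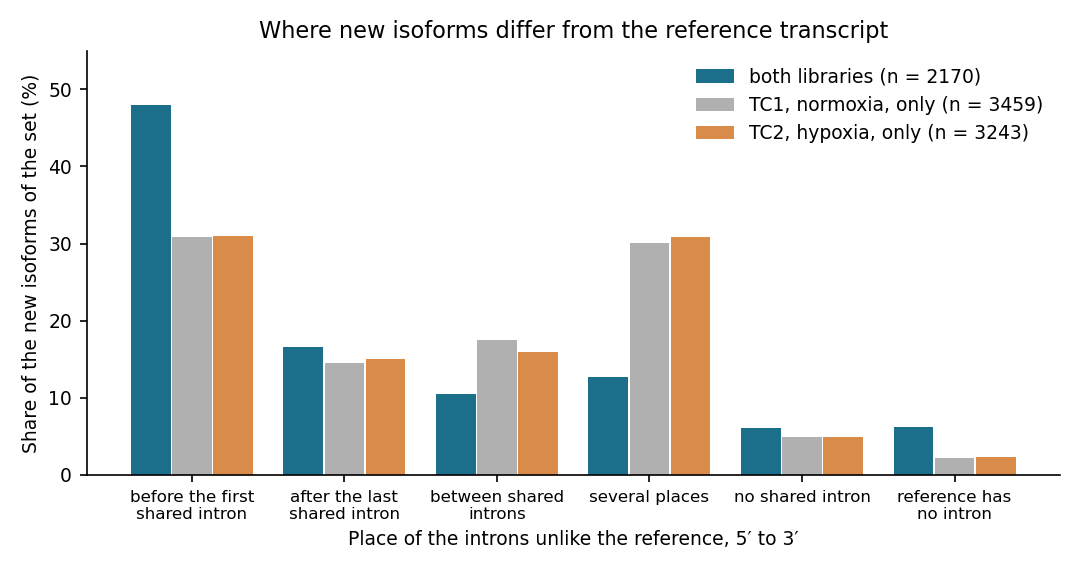
Bars give the percentage of new isoforms (y axis) by the place of the introns that differ from the reference (x axis), for isoforms found in both libraries, in TC1 only and in TC2 only. Changes before the first shared intron made up 48.0% of the isoforms found in both libraries, against 30.8% and 31.0% of those found in TC1 only and TC2 only.

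The single commonest change was an added intron upstream of the coding start. It was present in 868 isoforms (40%), of which 817 had 1 such intron, 40 had 2 and 11 had 3. As the reference models begin at the coding start, every intron before it is absent from them by definition. Such an intron may therefore be one that the reference leaves out rather than an alternative to it. The added introns had a median length of 439 bases (interquartile range 112 to 3722), and the longest ran over 61440 bases. Their acceptor lay close to the coding start, at a median of 16 bases before it (interquartile range 7 to 49). In 756 of the 868 isoforms (87.1%) this distance was at most 100 bases. For 616 isoforms the upstream introns were the only difference, so they kept every intron of the reference where it has any. The first exon of the 868 isoforms had a median length of 106 bases in normoxia and 109.5 in hypoxia, and the longest were 983 and 1779 bases. An intron downstream of the coding sequence was much rarer, with 54 isoforms.

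Other starts inside the gene were also common. In 284 isoforms the assembled transcript began past the donor of 1 or more reference introns, and 256 of these began within a reference intron rather than within an exon. An exon that lies in a reference intron and joins a reference acceptor served as the first exon of 142 isoforms. At the 3′ end, 248 isoforms stopped before the acceptor of 1 or more reference introns, of which 188 stopped inside a reference intron. An upstream exon joined directly to a reference acceptor, passing the first coding exon, was found in 163 isoforms.

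Inside the coding sequence, skipped exons were found in 163 isoforms, other acceptor sites in 142, other donor sites in 103 and inserted exons in 59. Retained introns were found in 319 isoforms (14.7%). The 173 skipping events left out 1 exon in 146 cases and 2 or more exons in 27. Shifts of an acceptor were mostly small, with a median of 19 bases, and 13 shifted by 3 bases and 13 by 12 bases. An acceptor shift of 1, 2, 4 or 5 bases was seen once.

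The lengths of these changes followed the codon. Of the skipped stretches, 146 of 173 (84.4%) were multiples of 3 bases, whereas 38.5% of the 41679 inner exons of the reference were. The same held for 111 of 149 other acceptors (74.5%), 75 of 104 other donors (72.1%), 44 of 60 inserted exons (73.3%) and 25 of 34 introns cut out of a reference exon (73.5%). Retained introns did not share it, with 119 of 339 (35.1%) multiples of 3, close to the 32.5% of all 55283 reference introns. The reading frame was not used to choose the isoforms. Reading frames were not translated here, since no genome of this build was at hand.

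Isoforms found in a single library showed the pattern less strongly. Skipped stretches were multiples of 3 in 79.1% of cases for isoforms found in TC1 only and in 77.9% for those found in TC2 only. For other acceptors the shares were 66.6% and 64.5%, for other donors 62.7% and 67.5%, and for inserted exons 65.6% and 70.8%. Introns cut out of a reference exon reached 66.7% and 47.6%. These values carry no test, since changes of the same gene are not independent.

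**Figure D2:**
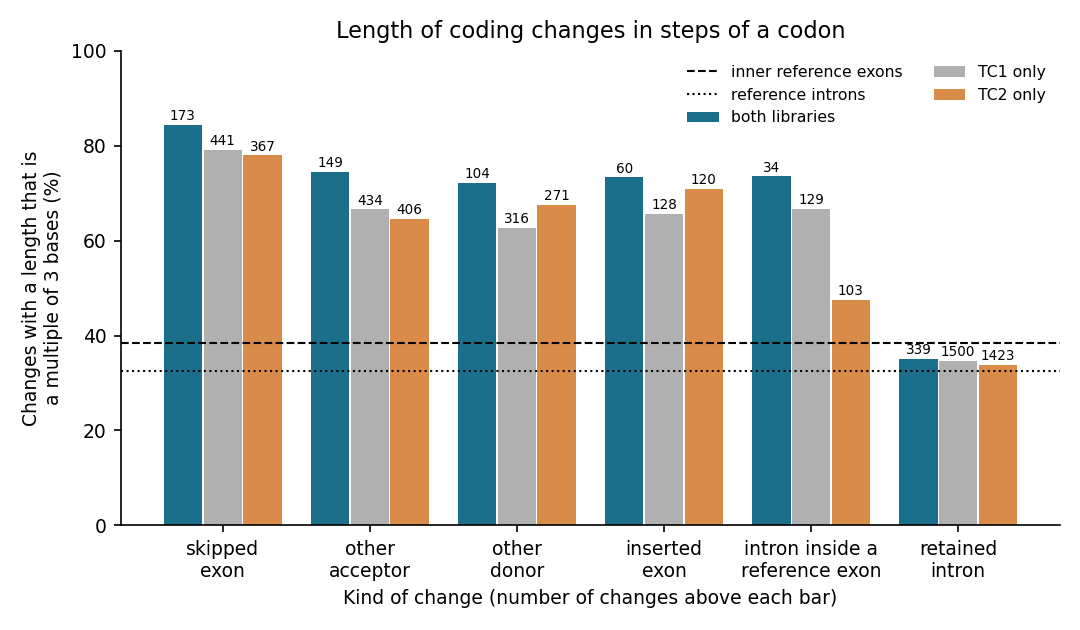
Bars give the percentage of changes whose length is a multiple of 3 bases (y axis), by kind of change (x axis), for isoforms of both libraries, TC1 only and TC2 only, with the number of changes above each bar. The dashed line marks inner reference exons (38.5%) and the dotted line reference introns (32.5%), and retained introns lie near these lines, while introns inside a reference exon in TC2 only stand at 47.6%.

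Isoforms with a change of whole codons held a larger part of the gene's RNA, given here as a description. Among 424 isoforms with exactly 1 such coding change, retained introns aside, the change was a multiple of 3 in 329. The median share of the summed FPKM of the gene (fragments per kilobase of transcript, scaled to the mapped fragments of the library) was 51.8% in normoxia and 54.8% in hypoxia for these 329. For the other 95 isoforms it was 36.6% and 42.7%. The median levels were nearer to each other, at 16.9 and 14.9 FPKM for the 329 and 15.3 and 12.6 FPKM for the 95.

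The new introns were long. The 2290 new introns of the isoforms had a median length of 737 bases (interquartile range 127 to 3566), against 55 bases for reference introns. None was shorter than 50 bases, and of 8392 and 8123 introns of assembled transcripts that are not in the reference only 5 and 4 were. Reference introns shorter than 50 bases made up 31.6% of all reference introns but 46.6% of the retained ones (158 of 339). In 101 isoforms the retention of introns under 50 bases was the only difference from the reference. Whether this lower limit comes from the mapping of reads was not tested.

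The shared isoforms had higher levels and fuller read support than those found in 1 library, which the rule of assembly in both libraries favours. Their median level was 16.2 FPKM in normoxia (interquartile range 6.82 to 39.8) and 15.1 FPKM in hypoxia (6.10 to 41.0). New isoforms found in 1 library only had medians of 8.15 and 7.37 FPKM. Full read support, as marked by the assembler, was given to 74.1% and 75.4% of the shared isoforms against 55.1% and 57.6% of the others. Retained introns occurred in 14.7% of the shared isoforms and in 35.0% of the isoforms of either library alone. Together the 2170 isoforms held 14.1% of the summed FPKM in normoxia and 15.7% in hypoxia. The files give no read counts, but the study lists more clean reads for its hypoxia than for its control sample. The interval given by Cufflinks had a median half-width of 15.7% and 14.9% of the level at 5 FPKM or more.

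The library kit does not mark strand, so the strand of a transcript rests on its splicing, and reads of a gene and of an overlapping gene on the other strand cannot be told apart. Exons of such a gene were overlapped by 221 isoforms (10.2%). Among the isoforms named below these are TC011292, isoform 2 of TC004920, isoforms 1 and 2 of TC003984, TC014082, both isoforms of TC009333, TC009599 and TC012638, whose levels are uncertain for this reason.

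Isoforms were found more often in highly expressed genes with many exons. Of genes between 1 and 5 FPKM, 6.26% carried one, and of genes at 100 FPKM or more, 28.9%. The share was 11.4% for single-exon genes and 23.4% for genes of 8 or more reference exons, among genes at 1 FPKM or more. Linkage group X had the largest share of such genes with an isoform (23.9%), and the other linkage groups lay between 17.1% and 22.4%.

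Both libraries modelled the ends of an isoform nearly alike. Starts differed by a median of 17 bases and ends by 30, and 87.5% of starts and 74.2% of ends lay within 100 bases of each other. FPKM are values per length, so a difference in modelled length bears on them. Of the 2170 isoforms, 1563 (72.0%) had lengths within 10% of each other.

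Between hypoxia and normoxia the shares of isoforms called were near those of all paired transcripts. An isoform was called where its FPKM differed by 1.5-fold or more and the intervals of the libraries did not overlap, at a mean of at least 1 FPKM. Of 2164 such isoforms, 303 (14%) were higher in hypoxia and 334 (15.4%) lower. Over all transcripts paired between the libraries, these isoforms included, 14.8% were higher and 17.3% lower. The median log2 ratio was -0.06 for the isoforms and -0.09 for all paired transcripts. In whole larvae, fewer cells of a type and less RNA per cell cannot be told apart.

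**Figure D3:**
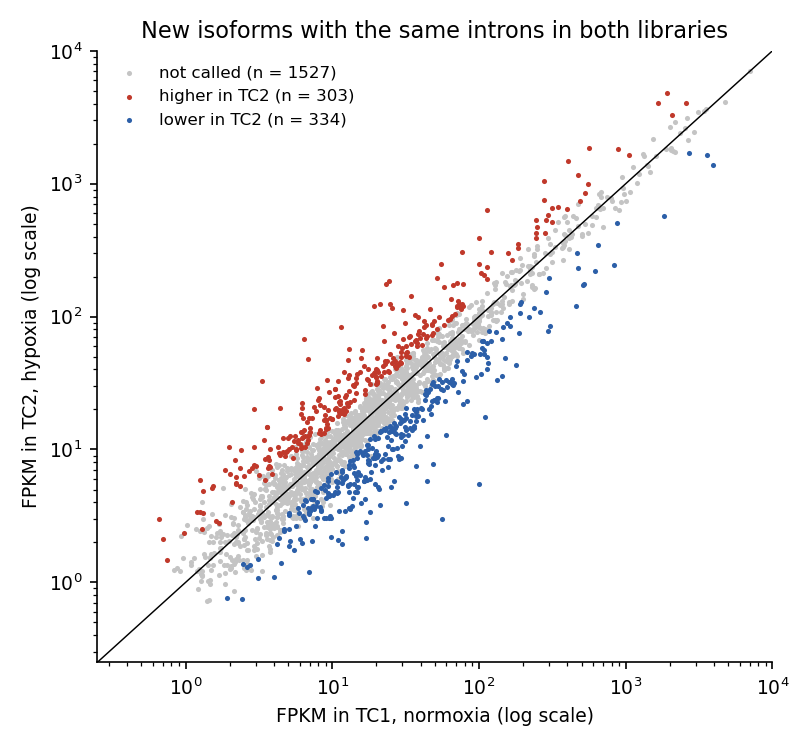
Each point is 1 new isoform, with its FPKM in TC1 (normoxia, x axis) and TC2 (hypoxia, y axis) on log scales, and the line marks equal levels. The 303 isoforms called higher and the 334 called lower lie to either side of the 1527 that were not called.

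Length moved with these calls. Lengths were within 10% of each other for 59.7% of the 637 called isoforms and for 77.1% of the 1527 that were not called. Of the 257 called isoforms whose lengths differed more, 208 (80.9%) had the higher FPKM in the library with the shorter model. Among isoforms of like length, 11.7% were called higher and 12.7% lower. By FPKM multiplied by length, 513 of the 637 kept their call. Of the isoforms named below, those of TC001048, TC007932, TC012638 and TC015013 and isoform 1 of TC003984 did not.

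An isoform and the reference transcript of its gene often moved apart. The reference transcript was above the filter for 451 of the called isoforms. Both were higher in 53 cases and both lower in 37. In 87 cases the isoform was higher while the reference transcript was lower, and in 100 cases the reverse held. These opposite calls include reference transcripts listed at 0 in 1 library, such as those of TC007932 (724 and 0 FPKM) and TC014082 (0 and 36.8 FPKM). The assembler divides the reads of a gene among its transcripts, so levels within a gene are not independent.

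How often the new isoform led its gene depended on references listed at 0. Its FPKM exceeded that of the reference transcript in both libraries for 1350 isoforms (62.2%), and in neither for 493. The reference transcript was listed at 0 in both libraries for 718 isoforms and in 1 library for 380. With those left out, 346 of 1072 isoforms (32.3%) exceeded a reference transcript above 0 in both libraries. The median share of the gene's summed FPKM was 50.3% in normoxia (interquartile range 29.3 to 80.9) and 51.8% in hypoxia (29.1 to 83.0). Above 90% of the gene in both libraries stood 308 isoforms. The fraction of its locus that the assembler gave an isoform had medians of 47.7% and 46.4%.

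The share of the gene changed by 20 percentage points or more for 491 isoforms. Of 1979 isoforms in genes of at least 5 FPKM in both libraries, 258 (13.04%) gained that much in hypoxia and 233 (11.8%) lost it. Over all paired transcripts of genes with 2 or more transcripts, 14.2% gained and 12.7% lost it, close to the isoforms. In genes with the same assembled intron sets in both libraries, 105 isoforms gained and 101 lost a share of that size, of 1218.

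The order of isoform and reference transcript turned over, with separate intervals in both libraries, in 111 cases of 2170. No such count was made over other transcripts, so it has no background. The isoform went from below to above the reference in 47 and from above to below in 64. Of the 111, 66 had a reference transcript above 0 in both libraries, 46 had lengths within 10% of each other and 31 had both. At the highest levels was TC001880, which has no name in the study. Its isoform, with an upstream intron of 385 bases whose acceptor lay 11 bases before the coding start, stood at 1667 FPKM under normoxia and 4035 under hypoxia. Its reference transcript stood at 4394 and 2192 FPKM. The isoform rose (log2 ratio 1.28) and its share of the gene went from 27.5% to 64.8%, with lengths of 1760 and 1549 bases. Isoform and reference transcript were the only forms of the gene, and their sum was nearly the same in both libraries. The assembler divides the reads of the gene between them, so the rise of 1 and the fall of the other are not independent.

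The reverse turn was seen for TC001048, whose isoform skipped an exon of 87 bases (29 codons) and added a downstream intron. Its level fell from 2690 FPKM under normoxia to 1691 under hypoxia (log2 ratio -0.67), while the reference transcript went from 951 to 2432 FPKM. Its modelled length was 745 and 932 bases, and multiplied by length its log2 ratio became -0.35, below the fold of 1.5.

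Of 74 genes that the study names with an identifier, 16 (21.6%) carried new isoforms, 19 in all. Among all genes at a mean of 1 FPKM or more the share was 19.7%, close to this. By the same rule 7 of the 19 were higher in hypoxia (background 14.8%) and 5 lower (background 17.3%), with a median log2 ratio of 0.56. The study chose most of these genes because they changed in these libraries, so their direction is no independent evidence. Isoforms were found in 4 of 9 genes of sugar and energy metabolism, 4 of 12 of signalling and growth, 3 of 18 digestive enzymes and 3 of 4 genes of amino acid and nucleotide synthesis. Immunity had 1 of 5 genes with an isoform and stress 1 of 6. None was found in the 6 genes of cuticle and chitin, the 4 of the oxidation of foreign compounds, the 2 of sugar transfer and the 8 of transport and binding.

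**Figure D4:**
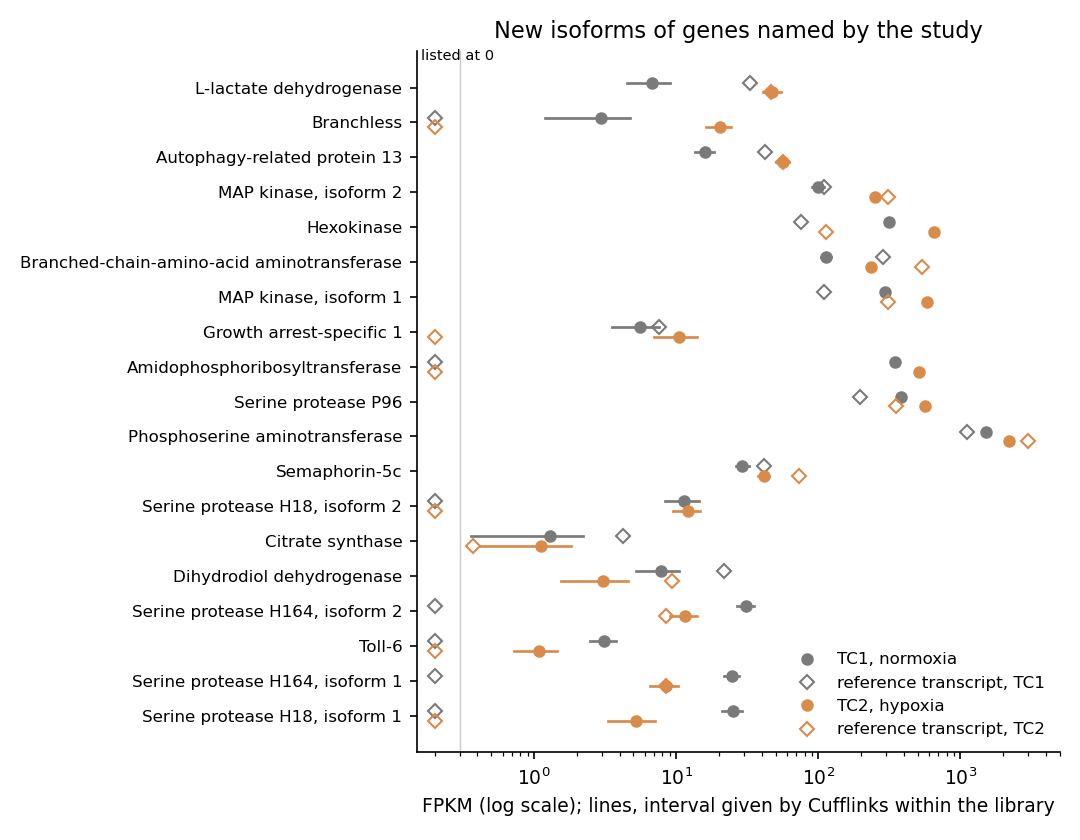
Circles give the FPKM (x axis, log scale) of the 19 new isoforms of genes named by the study in TC1 (normoxia) and TC2 (hypoxia), with the interval of the assembler as a line, and diamonds the reference transcript of the gene, drawn at the left where it was listed at 0. L-lactate dehydrogenase, with 6.79 and 47.6 FPKM, heads the isoforms that were higher in hypoxia, and isoform 1 of serine protease H18, with 25.1 and 5.19 FPKM, those that were lower.

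Among genes of sugar and energy metabolism, L-lactate dehydrogenase (TC003922), which turns pyruvate into lactate and so returns NAD to glycolysis, had an isoform with an upstream first exon. On ChLG3 (positions of the files, build not given in the sources used here) its added intron ran from 32533512 to 32535394, over 1883 bases, and ended 2 bases before the coding start. All 4 reference introns were kept. The isoform stood at 6.79 FPKM in normoxia (interval 4.48 to 9.09) and 47.6 FPKM in hypoxia (40.6 to 54.6), so the intervals lay far apart. It rose by a log2 ratio of 2.79, while the reference transcript, at 33.0 and 46.4 FPKM, did not pass the rule. The share of the isoform in the gene went from 14.5% to 44.9%. Another form, assembled in normoxia only, stood at 7.15 FPKM there, and another, assembled in hypoxia only, at 11.9 FPKM. The summed FPKM of the gene was 47.0 in normoxia and 105.8 in hypoxia. The modelled length of the new isoform was 1336 bases in normoxia and 954 in hypoxia. Multiplied by length, its level still had a log2 ratio of 2.31.

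Hexokinase (TC000319), which phosphorylates glucose at the entry of glycolysis, had an isoform that began inside the gene. A first exon of 90 bases in normoxia and 68 in hypoxia lay within the second reference intron and joined the acceptor of the third reference exon through an intron of 375 bases (ChLG2, 16226534 to 16226908). The 2 reference exons before it, with 111 coding bases, were left out. The isoform stood at 313 FPKM under normoxia and 656 under hypoxia and rose by a log2 ratio of 1.07. Its reference transcript stood far lower, at 76.1 and 113 FPKM, and was not called. In both libraries the isoform was the main transcript of the gene, with 70.6% and 85.3%.

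Dihydrodiol dehydrogenase (TC014229) had an isoform with another donor site, which made an exon 61 bases shorter and is not a whole number of codons. It fell from 7.82 FPKM under normoxia to 3.08 under hypoxia (log2 ratio -1.32), and the reference transcript fell with it, from 21.9 to 9.28 FPKM. The share of the isoform was 26.3% and 24.9%, so both transcripts moved in the same proportion. The isoform of citrate synthase (TC014588), which starts the Krebs cycle, kept introns of 54 and 50 bases and was too low to describe, at 1.29 and 1.11 FPKM.

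**Figure D5:**
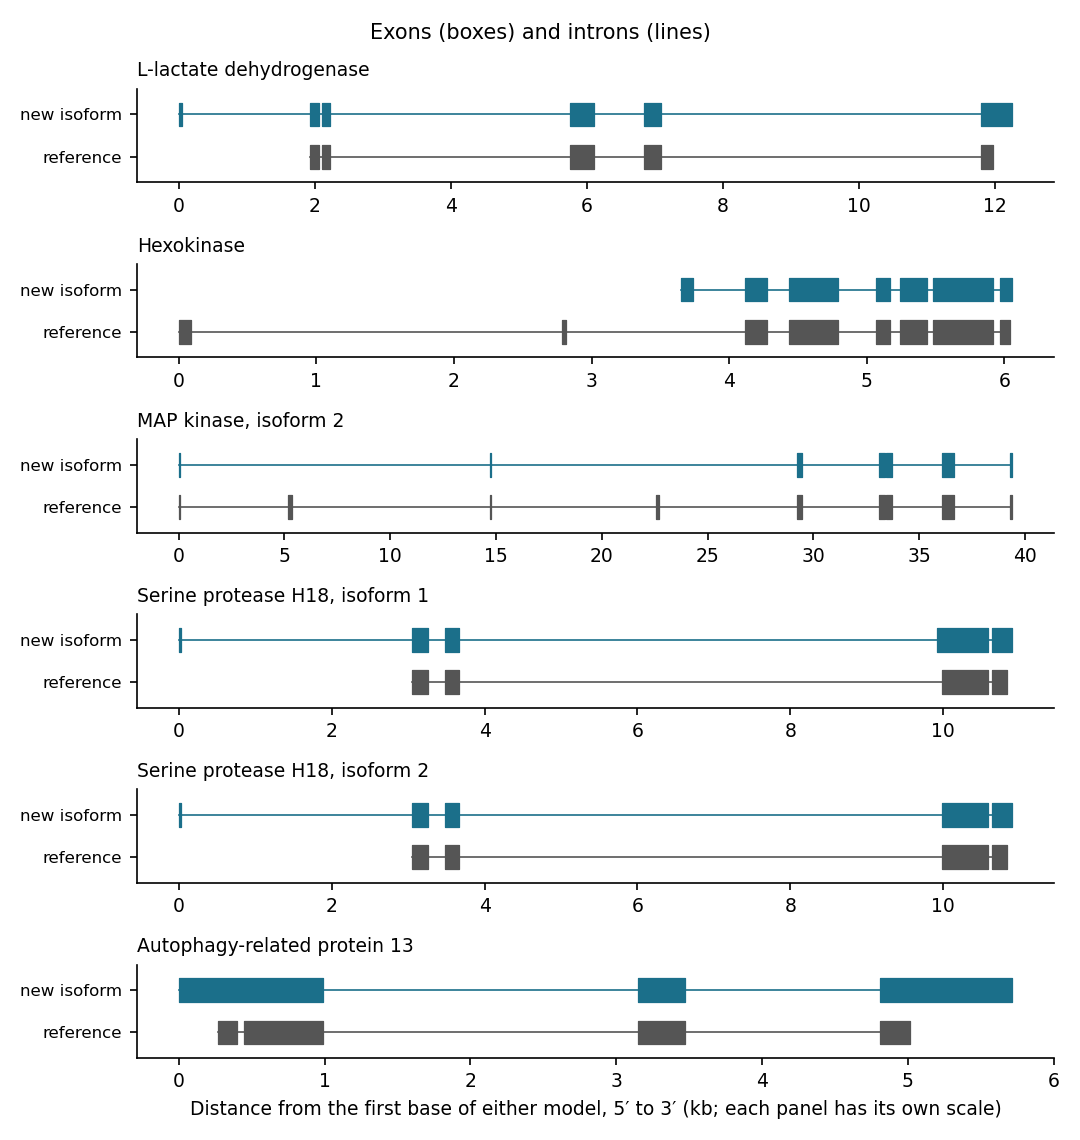
Exons (boxes) and introns (lines) of 6 new isoforms and of the reference transcript of their gene are drawn to scale, with the distance in kb from the first base of either model (x axis, 5′ to 3′). The reference models hold coding exons only, and the isoforms show an upstream first exon (L-lactate dehydrogenase, serine protease H18), a first exon inside the gene (hexokinase), 2 skipped exons (MAP kinase, isoform 2), a longer exon at another acceptor (serine protease H18, isoform 1) and a retained intron (autophagy-related protein 13).

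In signalling, the MAP kinase gene TC010495, whose product passes signals on by phosphorylating other proteins, had 2 new isoforms. Isoform 1 began within the third reference intron and so lacked 3 reference exons with 273 coding bases. It stood at 296 FPKM under normoxia and 579 under hypoxia (log2 ratio 0.97). Isoform 2 began at the first reference exon and skipped exons of 188 and 133 bases, neither a multiple of 3, whose sum of 321 bases is 107 codons. Its level was 99.7 FPKM under normoxia and 251 under hypoxia (log2 ratio 1.33). The reference transcript rose too, from 110 to 309 FPKM, so all 3 of these forms were higher in hypoxia. Other forms, assembled in normoxia only, stood at 140 and 100 FPKM there, and the summed FPKM of the gene was 745 and 1139. Isoform 1 exceeded the reference transcript in both libraries, and its share of the gene was 39.7% and 50.9%.

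Branchless (TC001705), the fibroblast growth factor that guides the branching of tracheal tubes in *Drosophila*, had an isoform of 2 exons. It began within the first reference intron and kept an intron of 47 bases (ChLGX, 10481493 to 10481539). That intron is under 50 bases, a length at which almost no new intron was assembled. The isoform stood at 2.95 FPKM in normoxia (interval 1.197 to 4.70) and 20.2 FPKM in hypoxia (16.3 to 24.2), a rise with a log2 ratio of 2.74. The reference transcript was listed at 0 in both libraries. In hypoxia the isoform was the only transcript of the gene above 0.

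The isoforms of growth arrest-specific 1 (TC009285) and Semaphorin-5c (TC001449) were not called. The first, with an upstream exon, stood at 5.57 and 10.5 FPKM, and its intervals overlapped, with lengths of 1163 and 855 bases. Semaphorins are guidance cues of growing axons, and the isoform of this gene stood at 29.3 and 41.2 FPKM.

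Autophagy-related protein 13 (TC001577), part of the kinase complex that starts autophagy in yeast and animals, had an isoform that kept its first intron, of 49 bases (ChLG3, 4621999 to 4622047). That length is not a whole number of codons, and it is under 50 bases, where almost no new intron was assembled. The isoform stood at 16.01 FPKM under normoxia and 56.3 under hypoxia and rose by a log2 ratio of 1.81. Its reference transcript stood at 42.5 and 56.8 FPKM and was not called. The share of the isoform went from 10.9% to 34.7%, with modelled lengths of 2221 and 1529 bases. Another form, assembled in normoxia only, stood at 88.4 FPKM there and held 60.2% of the gene. Other forms, assembled in hypoxia only, stood at 26.2 and 22.7 FPKM. The summed FPKM of the gene was 147 in normoxia and 162 in hypoxia, so the forms assembled differed more than the sum.

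Toll-6 (TC004895), a receptor of the Toll family, has a single exon in the reference. Its isoform added a downstream exon through an intron of 17509 bases and fell from 3.13 FPKM in normoxia (interval 2.48 to 3.78) to 1.08 FPKM in hypoxia (0.728 to 1.44). It was the only transcript of the gene above 0 in both libraries.

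Of the digestive enzymes, serine proteases H18, H164 and P96 carried new isoforms. Both isoforms of serine protease H18 (TC000829) shared an upstream intron of 3024 bases that ended at the coding start, and differed from each other by 66 bases (22 codons) at the acceptor of the second intron of the reference. Isoform 1, with the longer exon, stood at 25.1 FPKM in normoxia (interval 21.2 to 29.1) and 5.19 FPKM in hypoxia (3.29 to 7.09). Isoform 2, with the reference acceptor, stood at 11.4 FPKM (8.29 to 14.5) and 12.1 FPKM (9.49 to 14.7). Isoform 1 fell by 2.25 on the log2 scale and isoform 2 was not called, so their order turned, from 68.8% and 31.2% of the gene in normoxia to 30.01% and 69.99% in hypoxia. The reference transcript was listed at 0 in both libraries. Lengths agreed within 1 base between the libraries, but full read support was given to isoform 1 in normoxia only and to isoform 2 in neither library.

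Serine protease H164 (TC015670) had an isoform with an upstream exon (isoform 1) and one that began within the first reference intron (isoform 2). Isoform 1 stood at 24.7 FPKM under normoxia and 8.43 under hypoxia (log2 ratio -1.54). Isoform 2 stood at 31.1 and 11.5 FPKM (log2 ratio -1.43). Both fell by nearly the same ratio, while the reference transcript was listed at 0 in normoxia and stood at 8.43 FPKM in hypoxia. The isoform of serine protease P96 (TC009602) kept an intron of 51 bases (17 codons) and stood at 382 and 562 FPKM, above its reference transcript at 196 and 350 FPKM, and was not called.

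In amino acid and nucleotide synthesis 1 of 3 isoforms was called, as higher in hypoxia (background 14.8%). Branched-chain-amino-acid aminotransferase (TC000403), which moves the amino group of leucine, isoleucine and valine, had an isoform that kept an intron of 55 bases. It rose from 113 FPKM under normoxia to 235 under hypoxia (log2 ratio 1.05) together with its reference transcript, from 285 to 535 FPKM. The isoform of phosphoserine aminotransferase (TC000542), an enzyme of serine synthesis, ended before the last reference intron and stood at 1525 and 2184 FPKM. Its reference transcript rose from 1117 to 2984 FPKM, so the share of the isoform was 57.7% and 42.3%. For amidophosphoribosyltransferase (TC016203), which opens purine synthesis, the isoform held 100% of the FPKM given to the gene in both libraries, at 347 and 515 FPKM. The assembler gave it a smaller fraction of its locus, 0.453 and 0.403. This isoform added an upstream exon, and its last exon lay past the end of the gene model behind an intron of 31265 bases.

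Of the 10 most abundant isoforms, 3 were called, all higher in hypoxia (background 14.8% higher and 17.3% lower), too few to set apart from that background. TC014807 had the highest mean, with 6977 FPKM under normoxia and 7047 under hypoxia, in a short transcript of 274 and 289 bases that shared no intron with its reference of 3225 bases. TC016306 (3545 and 3655 FPKM) and TC001225 (3440 and 3541 FPKM) each carried 1 upstream intron and held 100% of their genes, with the reference transcript listed at 0. The fraction of its locus given to TC001225 was 0.843 and 0.830. Isoform 2 of TC009333 stood at 4777 and 4148 FPKM, TC009260 at 3095 and 3464 FPKM, TC011461 at 2595 and 3123 FPKM and TC012375 at 2906 and 2467 FPKM, none of them called. Beside TC001880, the isoforms of TC008240 and TC015013 rose, from 1899 to 4808 FPKM (log2 ratio 1.34) and from 2581 to 4021 FPKM (log2 ratio 0.64). The model of TC008240 was 591 bases long in normoxia and 430 in hypoxia. Multiplied by length, the log2 ratio of TC015013 became 0.54, below the fold of 1.5. None of these 10 genes has a name in the study.

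By ratio, the largest rises among isoforms with a mean of at least 5 FPKM and separate intervals were those of TC007038 (6.46 to 68.04 FPKM), isoform 2 of TC004920 (3.32 to 32.5 FPKM), TC012638 (23.3 to 177 FPKM), TC008033 (24.3 to 185 FPKM) and TC006713 (11.4 to 82.9 FPKM). The largest falls were those of TC014184 (55.9 to 2.99 FPKM), TC003944 (99.4 to 5.53 FPKM), isoform 2 of TC006279 (31.6 to 3.96 FPKM), TC004558 (17.1 to 2.14 FPKM) and TC003407 (44.4 to 5.77 FPKM). Modelled lengths differed by more than 10% in 8 of these 10. The length of TC012638 was 1612 bases in normoxia and 275 in hypoxia, and multiplied by length its log2 ratio of 2.92 became 0.38. For TC004920 the lengths were 1542 and 375 bases, and the log2 ratio of 3.25 became 1.23. Lengths were 1326 and 955 bases for TC007038, 1575 and 518 for TC006713, 1153 and 1587 for TC003944, 793 and 1206 for isoform 2 of TC006279, 678 and 1047 for TC004558 and 2386 and 3307 for TC003407. Multiplied by length, these 6 had log2 ratios of 2.91, 1.26, -3.69, -2.37, -2.32 and -2.47, in the same direction as by FPKM. TC008033 and TC014184 had like lengths in both libraries and kept their ratios, 2.92 and 2.93 for the first and -4.18 and -4.30 for the second. For TC008033 the summed FPKM of the gene was 171 and 185, and another form, assembled in normoxia only, stood at 147 FPKM there.

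TC014184 on ChLGX differed from its reference by 8 bases at a donor site, which made the exon longer. Isoform and reference transcript fell together, the reference from 35.0 to 1.86 FPKM, and the share of the isoform was 61.5% and 61.7%. In TC003944 both forms fell as well, the reference transcript from 100 to 23.7 FPKM, but the share of the isoform went from 49.8% to 18.9%.

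Some isoforms went from a small share of their gene to all of it, and others lost most of theirs. The largest gains were those of TC000132 (11.0% to 100%), TC009599 (12.8% to 100%), TC008033 (14.2% to 100%), TC003553 (14.6% to 100%) and TC007038 (14.6% to 100%). The largest losses were those of TC011292 (100% to 15.7%), TC014082 (100% to 17.5%), isoform 2 of TC006279 (89.8% to 13.1%), TC009028 (100% to 25.4%) and TC002777 (85.9% to 12.3%). In TC000132, TC009599, TC008033 and TC003553 another form, assembled in normoxia only, held 89.0%, 87.2%, 85.8% and 85.4% of the gene there. In TC011292 and TC002777 another form, assembled in hypoxia only, held 84.3% and 67.1%. The summed FPKM of TC009599 went from 175 to 65.6, and that of TC003553 from 132 to 120. For TC009028 the isoform fell from 827 to 245 FPKM, while the reference transcript, listed at 0 in normoxia, stood at 479 FPKM in hypoxia. The lengths of this isoform were 723 and 870 bases, and those of TC014082 were 976 and 1480 bases. TC000132, TC011292 and TC002777 had no full read support in either library. Where the share was 100%, the fraction of the locus was lower for TC014082 (0.800) and TC009028 (0.780) in normoxia and for TC009599 (0.682) in hypoxia.

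Exchanges between new isoforms of 1 gene were counted in the genes with 2 or more of them. Of the 235 such genes, 10 had an isoform that rose and another that fell, 12 had 2 or more that rose and 8 had 2 or more that fell. Counted per transcript, 14.8% of all paired transcripts were called higher and 17.3% lower. No count per gene was made over other transcripts, so neither these numbers nor the exchanges of share have a background. In 12 of the 229 at 5 FPKM or more in both libraries, the share of 1 isoform gained and that of another lost 20 points or more, H18 among them. TC000685 had 3 isoforms that differed in their upstream exon, at introns of 76, 2939 and 3128 bases sharing 1 acceptor 8 bases before the coding start. Isoform 2, with the 2939-base intron, led with 83.8 FPKM under normoxia and 77.6 under hypoxia, or 71.0% and 74.1% of the gene. Isoform 1, with the 76-base intron, had an inserted exon of 42 bases (14 codons) as well, at 15.5 and 13.7 FPKM.

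The 3 isoforms of TC000503 began at 1 shared first exon within the gene and differed by which exons of 114 bases (38 codons) they skipped. Isoform 3, which skipped both, stood at 161 FPKM under normoxia and 129 under hypoxia and held 58.8% and 58.9% of the gene. Isoforms 1 and 2 skipped 1 exon each and stood at 49.1 and 36.8 FPKM and at 31.8 and 26.2 FPKM. In TC003984 isoform 1, which had an inserted exon of 104 bases, rose from 40.6 to 61.0 FPKM (log2 ratio 0.59, or 0.50 when multiplied by length), while isoform 2, with the same upstream intron and without that exon, stood at 11.9 and 12.8 FPKM. Isoform 3, with another last exon, stood at 32.7 and 25.7 FPKM.

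Examples of the other classes show the range of levels. TC011865 skipped 279 bases (93 codons) between shared introns and stood at 552 and 425 FPKM, beside a reference transcript at 519 and 658 FPKM, with lengths of 741 and 1007 bases. TC010830 kept an intron of 48 bases (16 codons) and stood at 699 and 655 FPKM, below its reference transcript at 2793 and 2899 FPKM. TC008875, with another last exon within the gene, stood at 2648 and 2127 FPKM and held 100% of its gene, and TC005984, with a retained intron of 47 bases, stood at 1114 and 1340 FPKM. The introns kept by TC010830 and TC005984 are under 50 bases, a length at which almost no new intron was assembled. In genes whose reference has no intron, TC002985 (2156 and 1724 FPKM), TC007932 (2052 and 3272 FPKM) and TC015792 (2022 and 1805 FPKM) each gained an upstream exon, at introns of 102, 113 and 56 bases. Of these, TC007932 rose (log2 ratio 0.67), with its reference transcript at 724 FPKM in normoxia and listed at 0 in hypoxia. Its lengths were 583 and 496 bases, and multiplied by length its log2 ratio became 0.44, below the fold of 1.5.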

How the data were processed

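RNA was sequenced in 1 normoxia and 1 hypoxia library. Per the study's text, reads were trimmed at Q20 and mapped to the BeetleBase genome by the authors, who deposited 1 Cufflinks assembly per library. It gives each reference and assembled transcript its exons, FPKM with a confidence interval, coverage, fraction of its locus and read support. For the aligner, the versions, the build and the annotation, a value is not given in the sources used here. FPKM were used as the authors deposited them, without rescaling.

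Introns were read as the gaps between exons. Each isoform was compared with the reference transcript of its gene with which it shares most introns, and for levels with the reference transcript with the highest mean. Transcripts were given to the gene with most shared bases, unspliced ones without strand on either strand, and 688 and 693 entered no gene. Log2 ratios used 0.1 FPKM as pseudocount, so changes of low isoforms come out too small. With 1 library per condition there is no test. The classification was tested on simulated data.

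Isoforms were named by fixed rules: those of genes the study names (TC identifiers without a name there are given as such), the 10 highest means, the 5 largest changes of ratio and of share in each direction, the 3 highest of each class and 3 genes with most isoforms (of 17 tied at 3, the first by identifier). The members and lists were chosen with earlier results of these data known. Alternatives covered gene overlap, read support, level, pseudocount, fold, interval rule, length and share. Python 3.11.15, numpy 2.4.6 and matplotlib 3.10.9 were used. No sequences are printed, since no genome of this build was used here.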

Additional observations from a re-analysis of the deposited data

How the results depend on the processing

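The number of isoforms stayed between 1513 (full read support in both libraries) and 2245 (a gene counted from 10% of the exonic bases), around 2170. With a fold of 2, 146 isoforms were higher and 187 lower, in place of 303 and 334. Centring on the reference transcripts, which moves ratios by 0.11, gave 350 higher and 293 lower. The 1350 isoforms above the reference transcript became 346 without references listed at 0. Gains of share of 20 points or more (258) became 156 in genes of at least 20 FPKM and 105 in genes with the same intron sets, and losses (233) became 101 with the same intron sets. The following alternatives were chosen after seeing the data. With lengths within 10% in both libraries 182 were higher and 198 lower, and with FPKM multiplied by length 276 and 303. Gains of share became 98 without references listed at 0 and 160 with lengths within 10%, and losses became 87 and 139. Most of these settings leave fewer isoforms to count. Multiples of 3 made up 77.4% of skipped and inserted exons and other splice sites (60.5% with retained introns and introns cut out of an exon), 78.0% at a mean of 5 FPKM or more and 79.0% with full read support. No paired analysis was possible because each condition has 1 library. Intervals cover counting and assignment within a library only, and an isoform or reference transcript listed at 0 FPKM may be one whose estimate failed.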

Other observations

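Intron sets outside the rule were also shared by both libraries. In 288 of them an assembled transcript joined exons of 2 or more reference genes on 1 strand, 258 of them joining 2 genes and 30 joining 3 or more, with median levels of 15.2 FPKM under normoxia and 15.04 under hypoxia. A further 131 shared sets lay outside reference genes, and 70 assembled sets equalled a reference transcript in both libraries.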
